A study of Mus musculus with 2 samples.

Results

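The 10 genes described here are parts of the Notch signalling pathway. They are the receptors Notch2 and Notch4, the receptor modifier Lfng, the inhibitor Numb, the nuclear effectors Rbpj, Maml1 and Maml2, and the target genes Hes1, Hes5 and Hey1. They were taken by gene symbol from 13506 genes that had a value on both arrays of the series, and each of the 10 was read by 1 probe. RNA came from tumours of Colon26, a mouse colon carcinoma line, after injection of the cells into the submucosa of the rectum of Balb/c mice. On each of 2 arrays, RNA of a primary tumour labelled with Cy5 was compared with RNA of a liver metastasis labelled with Cy3, and each array used its own, separately grown tumour and metastasis. Tumour and metastasis carried the same cell line and no allele or agent beyond it is named in the labels.

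Notch receptors are cut when they meet a ligand on a neighbouring cell. The freed intracellular part enters the nucleus and joins the DNA-binding protein Rbpj and a Mastermind coactivator (Maml) to switch on targets, among them the Hes and Hey repressors. In the intestine the pathway keeps crypt cells dividing and holds back secretory cells, with Hes1 as the best known mediator, and in blood vessels it guides arterial fate and sprouting.

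All values are log ratios of the 2 channels of an array, taken as log2. The labels do not give the numerator of the ratio, so values are given as the positive and the negative side and no side is assigned to the primary tumour or the metastasis. The dyes were not swapped, so a probe's preference for 1 dye enters both of its ratios and cannot be told apart from a difference between the tissues. A ratio also cannot tell fewer cells of a type from less RNA per cell. Each ratio was tested against 0 with limma's moderated test across all genes, and a gene was called at a Benjamini-Hochberg adjusted p under 0.05. By this rule 391 of the 13506 genes were called, 2.9% of all, with 2.12% on the positive and 0.777% on the negative side. Intervals are limma's 95% intervals of each gene alone, with no adjustment for the number of genes. Pearson's r between the arrays was 0.615 across genes, which do not count as independent replicates.

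The sequences below show the motif through which the pathway reaches DNA. Rbpj binds a core written TGGGAA, or TTCCCA on the opposite strand. The RefSeq promoter table (GRCm38.p6) matched 8 of the 10 genes and had no entry for Hes1 and Hey1, which were therefore not searched. The windows of the 8 genes were searched for these letters over the 250 bases before the start. Hes5 and Lfng are shown because both are textbook Notch targets, had ratios on opposite sides, and held the core 2 times. The capitals mark the core.
Hes5, chr4:154960673-154960922, plus strand: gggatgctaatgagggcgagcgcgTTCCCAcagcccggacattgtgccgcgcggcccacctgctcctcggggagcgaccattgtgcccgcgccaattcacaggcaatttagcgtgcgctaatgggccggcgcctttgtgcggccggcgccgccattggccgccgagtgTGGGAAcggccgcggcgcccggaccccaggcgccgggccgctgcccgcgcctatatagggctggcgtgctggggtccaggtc
Lfng, chr5:140607091-140607340, plus strand: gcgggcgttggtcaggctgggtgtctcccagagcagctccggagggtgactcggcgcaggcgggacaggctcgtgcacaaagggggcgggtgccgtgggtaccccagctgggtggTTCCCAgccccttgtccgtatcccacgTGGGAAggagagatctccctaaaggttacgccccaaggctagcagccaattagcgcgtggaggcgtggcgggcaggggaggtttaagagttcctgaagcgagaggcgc

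Counted back from the start, the 2 cores of Hes5 began at bases 226 and 82, and those of Lfng at bases 135 and 108. Among 32851 windows of this length, 21.6% held the core at least once and 2.77% held it 2 or more times. The first of 2 overlapping windows of Rbpj also held it 2 times. The single match in the second window of Rbpj is 1 of these same sites. Of Maml2, 1 window held it once, and the windows of Notch2, Notch4, Maml1 and Numb had no match. The N box CACNAG, a site of Hes repressors searched on both strands, was found in 36.7% of all windows and once each in a window of Notch2, Maml2, Numb and Lfng. A match is a run of letters and not a measured binding site. Another RefSeq model of Hes5 starts farther upstream, so its window lies within that gene's span.

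The receptors lay on opposite sides. Notch2, a widely made receptor, had 0.63 on array 1 and 0.58 on array 2, both positive and close together. Notch4, a receptor best known from blood vessels, had -0.45 and -0.37, both negative, so the receptors' values did not overlap. Their means were 0.60 ± 0.04 (SD, n = 2) for Notch2 and -0.41 ± 0.05 for Notch4. The ratio of Notch2 exceeded that of Notch4 by 1.08 log2 units on array 1 and by 0.95 on array 2. Neither receptor passed the threshold, with an adjusted p in limma of 0.0959 for Notch2 and 0.167 for Notch4. The other 2 receptors changed sign between the arrays, with Notch1 at -0.50 and 0.02 and Notch3 at -0.07 and 0.21.

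Blood vessel markers were on the side opposite to Notch4. Of 10 measured endothelial genes, 8 lay on the positive side on each array and 2 changed sign between the arrays (33.9% of all genes were positive on both), with medians of 0.42 on array 1 and 0.41 on array 2. Their values ran from -0.76 to 1.00 on array 1 and from -0.10 to 1.51 on array 2. Flt1, a receptor for vascular growth factors, had 1.25 ± 0.36 (SD, n = 2; adjusted p = 0.0475 in limma), and Robo4, a vessel guidance receptor, had 1.04 ± 0.21 (adjusted p = 0.0492). These 2 were the called endothelial genes, and 2.12% of all genes were called on the positive side. Both lay just under the threshold, and their calls are not reported under other processing. The part of vessel content in the ratios of Notch4, Hey1 and the ligand Dll4, which endothelial cells make, was not tested. The ratios hold no level of either tissue, so the labelled tissues could not be checked by presence of their markers. The median ratio was -0.09 over 8 hepatocyte genes, 0.02 over 7 genes of colonic epithelium, and 0.13 and 0.17 over 4 cholangiocyte and 6 T cell genes. On both arrays 2 hepatocyte genes were positive and 4 negative, with means from -0.95 to 0.80. For colonic epithelium 2 were positive and 3 negative (-0.42 to 0.49), and for cholangiocytes 1 and 1 (-0.26 to 0.26). For T cells 2 were positive and 1 negative (-0.16 to 0.99). In limma 0 genes of these lists were called (2.9% of all genes). Over 7 genes of fibroblasts and mural cells the median was -0.33, with 5 negative and 0 positive on both arrays (38.2% and 33.9% of all genes). Col1a1, a chain of type I collagen, was the 1 called among these 7, at -2.80 on array 1 and -3.05 on array 2 (adjusted p = 0.0184 in limma). Col1a2, also a chain of type I collagen, had only -0.38 and -0.11 (adjusted p = 0.365). Col3a1 had -0.72 and -0.09 (adjusted p = 0.262), so the size of the Col1a1 ratio was not shared by these collagen genes. The part of stromal content in the ratios of the Notch genes was not tested.

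Lfng and Numb, which act on the receptor, were positive on both arrays, but Lfng with a wide spread. Lfng, a glycosyltransferase that changes which ligands a receptor answers to, had 0.10 on array 1 and 1.09 on array 2. Only array 2 was far from 0. The mean was 0.60 ± 0.70 (SD, n = 2), and limma gave a 95% interval from -0.09 to 1.28 (adjusted p = 0.221). The gap between arrays was wider than in 94.8% of all genes. Numb, an adaptor that removes Notch from the cell surface, had 0.28 and 0.50 and a mean of 0.39 ± 0.16, and its interval from -0.01 to 0.80 included 0 (adjusted p = 0.191).

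The nuclear effectors were divided. Rbpj, listed on the array under its older symbol Rbpsuh, had -0.69 on array 1 and -0.54 on array 2, negative on both and the lowest mean of the 10 genes. Its mean was -0.61 ± 0.11 (SD, n = 2), and its interval, not adjusted for the number of genes, ran from -1.01 to -0.22. With an adjusted p of 0.0967 in limma, Rbpj missed the threshold. Maml1 had -0.33 and -0.44, on the same side as Rbpj. Maml2, a coactivator of the same family, had 0.26 and 0.53, on the opposite side and without overlap. Their means were -0.38 ± 0.08 for Maml1 (adjusted p = 0.184) and 0.39 ± 0.19 for Maml2 (adjusted p = 0.194). The ratio of Maml2 exceeded that of Maml1 by 0.59 log2 units on array 1 and by 0.97 on array 2.

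**Figure D1:**
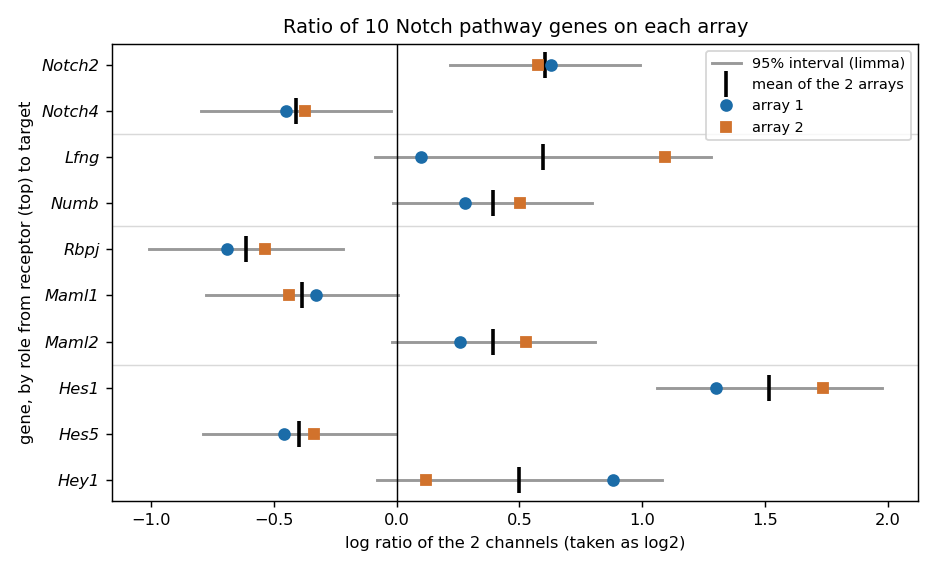
Log ratio (x axis, taken as log2) of the 10 genes in rows, from receptors at the top to targets at the bottom. The circle is array 1, the square array 2, the black tick their mean and the grey line limma's 95% interval. Hes1 stands alone above 1 on both arrays, and Lfng and Hey1 have the arrays farthest apart.

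Of the target genes, Hes1 had the widest ratio of the 10 genes and was the 1 called. Hes1, a repressor of differentiation genes, had 1.30 on array 1 and 1.73 on array 2, above every value of the other 9 genes on each array. The mean was 1.52 ± 0.31 (SD, n = 2), and its 95% interval ran from 1.06 to 1.97 (adjusted p = 0.0365 in limma). This is a ratio of 2.86-fold if the values are log2, and 4.56-fold if they are natural logs. By absolute mean Hes1 ranked 155th of 13506 genes. It was also the 1 gene of the 10 at least 1 log2 unit from 0 on both arrays, which 2.27% of all genes met. The call was lost after scaling the arrays to equal spread (adjusted p = 0.0530), after quantile normalization (adjusted p = 0.0695) and against a minimum fold of 1.2 (adjusted p = 0.0538), all in limma. The ratio itself was 1.504 after scaling and 1.54 after centring, the lowest and highest of the 6 settings that used both arrays. The single arrays, at 1.30 and 1.73, lay farther apart.

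**Figure D2:**
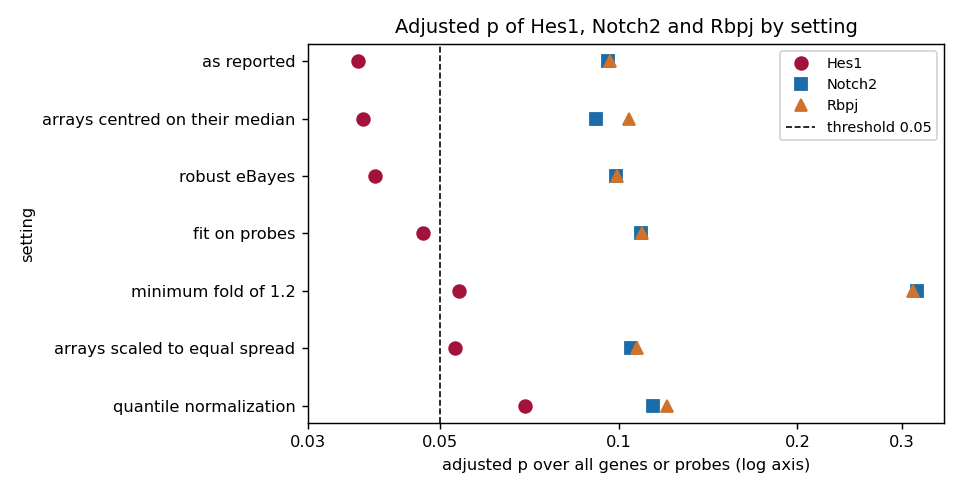
Adjusted p from limma (x axis, log scale) of Hes1 (circles), Notch2 (squares) and Rbpj (triangles) under each setting of the processing in rows, with the threshold of 0.05 as a dashed line. Hes1 lies below the line in the reported fit and 3 other settings, up to 0.0469 in the fit on probes, and above it in 3, up to 0.0695, while Notch2 and Rbpj lie above it in each.

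Neither Hes5 nor Hey1 passed the threshold. Hes5, a close relative that is active in neural progenitors, had -0.46 on array 1 and -0.34 on array 2, on the opposite side. Its mean was -0.40 ± 0.09 (SD, n = 2; adjusted p = 0.178 in limma). The ratio of Hes1 exceeded that of Hes5 by 1.76 log2 units on array 1 and by 2.07 on array 2. Hey1, a related repressor known from blood vessels and bone, had 0.88 and 0.12, positive on both, with array 1 alone far from 0. Its mean of 0.50 ± 0.54 had an interval from -0.08 to 1.08 (adjusted p = 0.226), and the arrays lay farther apart than in 90.4% of genes. The ratio of Hes1 exceeded that of Hey1 by 0.42 log2 units on array 1 and by 1.62 on array 2, a gap of 1.02 ± 0.85 that was not tested. Of the other relatives measured on both arrays limma called 0, and 0 had an unadjusted p under 0.05. Hes7 had 0.33 ± 0.22, Hes2 had -0.38 ± 0.11 and Helt -0.36 ± 0.35. Hey2 had a value on array 1 only, at 0.40.

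In order of mean ratio, Hes1 was followed by Notch2, Lfng, Hey1, Maml2 and Numb on the positive side. From Notch2 to Numb the means ran from 0.60 to 0.39, and each neighbour in that order overlapped the next over the 2 arrays, so their order was not resolved beyond Notch2 lying above Maml2 and Numb on both arrays. On the negative side Rbpj was farthest from 0, followed by Notch4, Hes5 and Maml1, whose means lay between -0.41 and -0.38 and whose arrays overlapped. Rbpj did not overlap these 3. In all, 6 of the 10 genes were positive on both arrays and 4 negative on both, against 33.9% and 38.2% of all genes. Each of the 10 thus kept its sign, as did 72.2% of all genes. Limma called 1 of the 10 (2.9% of all genes), and 5 had an unadjusted p under 0.05 (27.5% of all genes). The 10 genes were chosen with such values known, and nothing is read from these shares. The median ratio was 0.39, against -0.02 for all genes. It is the midpoint of Numb and Maml2 in a list with genes on both sides of 0, and on the separate arrays it was 0.18 and 0.31.

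**Figure D3:**
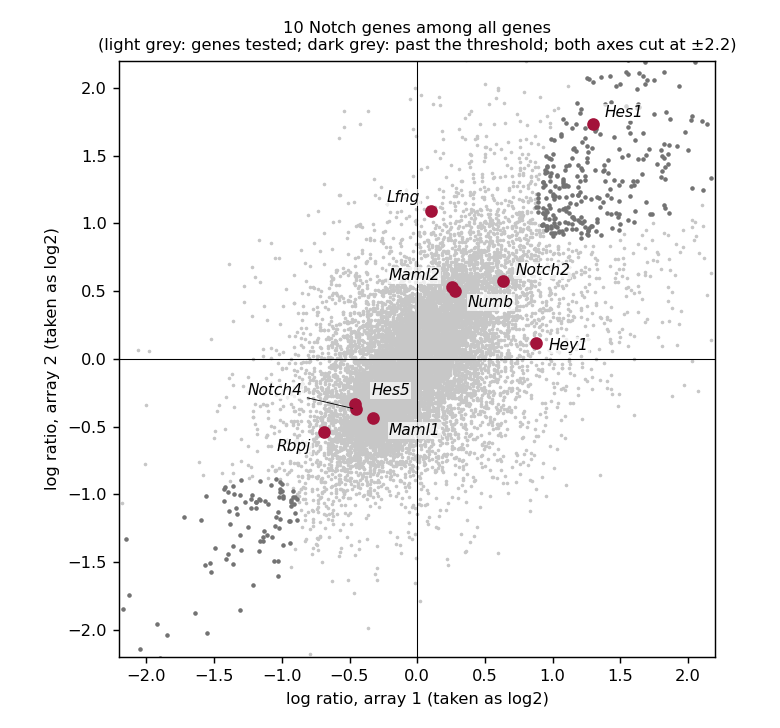
Log ratio of each gene on array 1 (x axis) against array 2 (y axis), both taken as log2, with the axes limited to the centre of the plot. Light grey points are all genes tested, dark grey points the called genes and red points the 10 Notch genes. Hes1 lies among the called genes, and the other 9 lie closer to 0.

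The genes nearest to Hes1 over the 2 arrays, by Euclidean distance between the pairs of values, were Wdr44, 4933427D14Rik, Rcan2, Brdt and Ttc41. Their distances ran from 0.0420 log2 units for Wdr44, at 1.32 on array 1 and 1.70 on array 2, to 0.117 for Ttc41, at 1.24 and 1.63. All 5 were called. With 2 arrays, likeness says only that the values are close.

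The wider pathway showed no common side. Of 88 listed genes, 70 had a value on both arrays, 28 positive on both, 28 negative on both and 14 of mixed sign. Limma called Hes1 alone (2.9% of all genes were called), and 18 of the 70 had an unadjusted p under 0.05, among them 5 of the 10. Of all genes, 27.5% met that p, and the smaller counts by role that follow are to be read beside it. The median ratio of the 70 genes was -0.03, near that of all genes. Of the 18 others, 10 were not matched to a probe by symbol, 5 had no value, 2 had a value on array 1 only and 1 on array 2 only.

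Among the ligands, Dlk1, a Delta-like protein without the usual receptor-binding domain, had the largest ratio of the list after Hes1. It had 1.85 on array 1 and 0.91 on array 2, both positive, and a mean of 1.38 ± 0.66 (SD, n = 2; adjusted p = 0.0616 in limma), just above the threshold. Dll4, the ligand of sprouting vessels, had 0.81 and 0.06, and Jag1 had 0.16 and 0.24. Dll4 and Hey1 both lay far from 0 on array 1 alone. Of the 6 ligands measured, 3 were positive and 1 negative on both arrays. The threshold was passed by 0 in limma, and an unadjusted p under 0.05 was met by 1.

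Of the enzymes that modify and cut the receptor, limma called 0, and Poglut1 and Adam17 had an unadjusted p under 0.05. In the glycosylation group, Poglut1, which adds glucose to Notch, had 0.43 ± 0.05 (SD, n = 2). Mfng, a relative of Lfng, had -0.37 ± 0.14 and Pofut1, which adds the fucose that Lfng extends, -0.23 ± 0.15. Adam17, a protease that can shed Notch, had -0.48 on array 1 and -0.96 on array 2, the lowest mean of the pathway list at -0.72 ± 0.34 (adjusted p = 0.1003 in limma). Furin, which cuts the receptor on its way to the surface, had -0.48 ± 0.39, and Aph1a, a gamma-secretase subunit, -0.28 ± 0.13. Of 9 proteases and gamma-secretase subunits, 5 were negative and 3 positive on both arrays.

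Of 13 genes of endocytosis and ubiquitin ligases, 5 were positive and 4 negative on both arrays. The Deltex ubiquitin ligases Dtx3, Dtx4 and Dtx2 were negative, at -0.64 ± 0.02 (SD, n = 2), -0.56 ± 0.23 and -0.38 ± 0.10. Dtx1, itself a Notch target in lymphocytes, had -1.11 on array 1 and 0.29 on array 2 and so no common sign. Dtx3l was positive, at 0.19 ± 0.05. Numbl, the relative of Numb, had 0.70 ± 0.58 and so lay on the side of Numb. In limma 0 of the 13 passed, and 3 had an unadjusted p under 0.05 (27.5% of all genes).

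Among the nuclear partners, the third Mastermind gene Maml3 had 0.60 and 0.56, on the side of Maml2, with a mean of 0.58 ± 0.03 (SD, n = 2; adjusted p = 0.102 in limma). Ep300, an acetyltransferase recruited by Mastermind, had 0.54 on array 1 and 1.55 on array 2, and its mean of 1.04 ± 0.71 had an adjusted p of 0.101. Of 9 nuclear activators, 5 were positive and 4 negative on both arrays. Of 7 corepressors, 3 were positive and 3 negative on both. Cir1, a corepressor that binds Rbpj, had 0.47 ± 0.14, Spen, another, -0.32 ± 0.16, and Ctbp2 -0.27 ± 0.18. In limma 0 of either group passed, and 3 activators and 1 corepressor had an unadjusted p under 0.05 (27.5% of all genes).

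Targets outside the Hes and Hey family lay on both sides. Olfm4, a crypt protein, had -0.60 ± 0.28 (SD, n = 2), the cell cycle inhibitor Cdkn1a -0.53 ± 0.02 and Myc -0.35 ± 0.06. Gata3, a factor of T cells and many epithelia, had 0.27 ± 0.02, and Il2ra, an interleukin receptor chain, had 0.95 on array 1 and -0.15 on array 2. Of 5 measured, 3 were negative on both arrays, 1 was positive on both and 1 mixed (38.2% of all genes were negative on both and 33.9% positive). In limma 0 passed, and 2 had an unadjusted p under 0.05. The genes of the intestinal secretory lineage, which Notch holds down in the crypt, were divided. Gfi1, a factor of secretory precursors that blood cells also make, had 0.68 ± 0.10 and the goblet cell peptide Tff3 0.82 ± 0.79. Muc2, the goblet cell mucin, had -0.38 ± 0.17. Of 6 measured, 2 were positive, 2 negative and 2 mixed. In limma 0 passed, and 2 had an unadjusted p under 0.05.

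**Figure D4:**
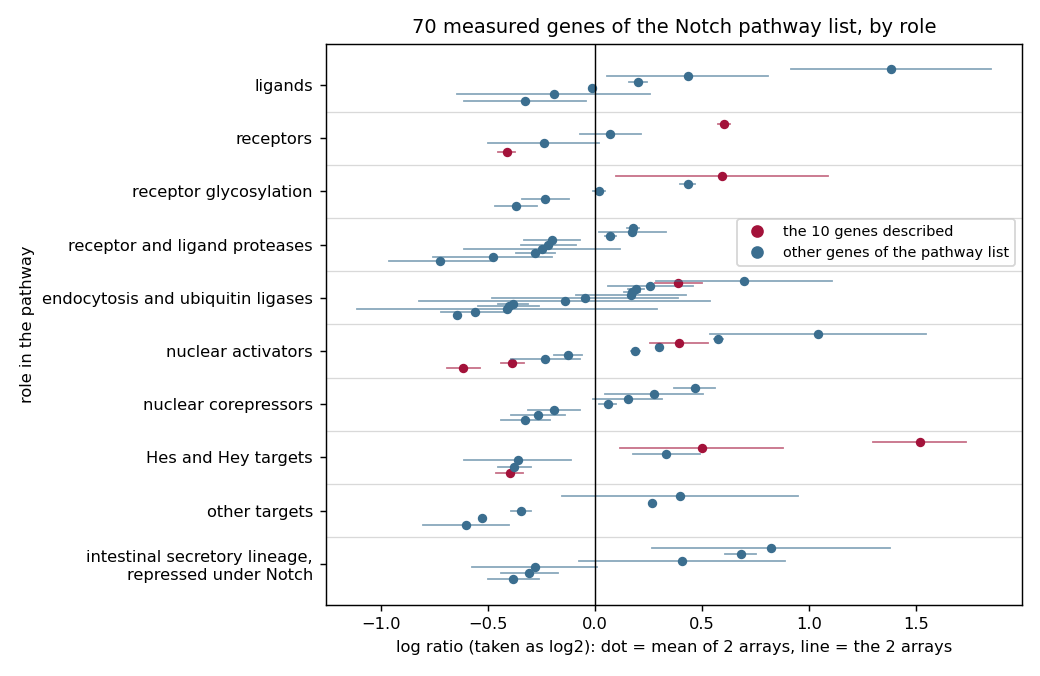
Log ratio (x axis, taken as log2) of the 70 measured genes of the pathway list, in rows by role. Dots are means of the 2 arrays, lines join the 2 arrays, and the 10 genes described are red. Dots lie on both sides of 0 in each role, and Hes1 at 1.52 and Dlk1 at 1.38 are farthest from 0.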

How the data were processed

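The deposited table holds 1 log2 ratio per probe and array, made by the authors. Log base 2 was assumed, and a natural log was not excluded. How the spots were scanned, filtered, background-corrected and normalized is not stated in the labels. Over probes with a value on both arrays, 100% of array 1 values were whole hundredths, against 0.005% of array 2 values. The part of this difference in the gaps between the arrays was not tested. The ratios were of amino-allyl aRNA, per the labels' protocols. A value on both arrays was present for 18837 of 23473 probes. Gene symbols came from the platform annotation, with 3947 updated through a unique synonym in RefSeq's GRCm38.p6 gene table, and probes of a gene were averaged. The test of each ratio against 0 used limma 3.58.1 under R 4.3.3 (lmFit, eBayes), with 1 residual degree of freedom and a prior of 4.06. The script was tested on simulated data, where some calls were false and most genes set at 1 log2 unit were missed. Intensities were not analysed here. The number of arrays limits the precision. The members and lists were chosen with earlier results of these data known. All 10 members were named. From the pathway list the rule took called genes and, per role, up to 3 with the largest weaker array of common sign, and then the 5 genes nearest Hes1. Notch1, Notch3, Numbl, Dtx1, Dtx3l, Hes7, Helt, Hey2, Gata3 and Il2ra, and the marker genes named, were added after their values were seen. Alternatives were centring, scaling, quantile normalization, a fit on probes, a minimum fold and robust eBayes. Figures used matplotlib 3.10.9.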

Additional observations from a re-analysis of the deposited data

How the results depend on the processing

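The count of called genes, 391, became 358 after centring and 267 with robust eBayes, and fell to 238 probes in the fit on probes, 108 with a minimum fold of 1.2, 51 after scaling and 4 after quantile normalization. Of the 10 Notch genes and of the pathway list, limma called 1 after centring, with robust eBayes and on probes, and 0 after scaling, quantile normalization or with the minimum fold. For the single genes, 57 tested values under these settings kept the sign and the side of the threshold, and 3, all of Hes1, kept the sign and lost the call. The 20 values on 1 array kept the sign of the mean, as they had to, because each of the 10 genes had the same sign on both arrays. The median of the 10 genes was 0.39 and between 0.38 and 0.42 after centring, scaling or quantile normalization, and ranged from 0.18 to 0.31 on single arrays. The median of the pathway list, -0.03, was -0.0044 after centring and -0.0455 and -0.0454 after scaling and quantile normalization, and on single arrays ranged from -0.005 to 0.0049, so its sign was not settled. With 1 array left there are no residual degrees of freedom, so leaving out a replicate gave values and no calls. Each array already holds the pair of tumour and metastasis, so the test of the ratios against 0 was itself paired by array. Both arrays belong to 1 group, so no further pairing was possible.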
